A study of Mus musculus with 10 samples.

Results

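Acetate is taken up by T cells through monocarboxylate transporters and becomes useful to the cell once it is joined to coenzyme A. Acetyl-CoA is the common fuel of the TCA cycle, the building block of fatty acids and sterols, and the donor of acetyl groups to histones and other proteins. Because acetyl-CoA does not cross the inner mitochondrial membrane, cells keep a mitochondrial and a cytosolic-nuclear supply, which are linked by export of citrate and by the carnitine shuttle. The expression of 10 genes of this system was examined in CD8+ T cells that had been co-cultured with breast cancer cells with or without sodium acetate (NaAc). They were chosen by name, for their known roles and with earlier results of these data known, from the 57825 genes listed. These were the transporters Slc16a1 and Slc16a3, the acetate receptor Ffar2, the acetyl-CoA synthetases Acss1 and Acss2 and the citrate route Slc25a1 and Acly. The others were the carnitine acetyltransferase Crat, the hydrolase Acot12 and the thiolase Acat1.

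RNA sequencing covered 10 samples in 2 groups of 5. CD8+ T cells from the spleens of female Balb/c mice, aged 7 to 8 weeks according to the methods, were purified by magnetic selection and activated in all samples on anti-CD3-coated plates with IL-2 and anti-CD28 for 12 h. They were then kept for 24 h with NaAc (group CD8+4T1+NaAc, 5 mM) or without it (group CD8+4T1), and co-cultured in both groups for 48 h with 4T1 cells, a mouse mammary carcinoma line of Balb/c origin. The samples are marked as day 3, and RNA was taken from purified CD8+ T cells. No library in this comparison came from T cells without tumor cells or from 4T1 cells alone. The labels do not say whether the 5 samples of a group came from separate mice or cultures, so that p-values here measure the spread between these samples, which may be technical.

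Expression is given as FPKM (fragments per kilobase, scaled to the fragments of each library), which referred to between 16306447 and 18853726 fragments per sample. The listed genes held 95.5% to 97.9% of these fragments in CD8+4T1 and 89.8% to 92.1% in CD8+4T1+NaAc. Their summed FPKM was 310965 to 335151 in CD8+4T1 and 282995 to 295928 in CD8+4T1+NaAc, so that rescaling every sample to the same total raised the NaAc values relative to the others. Over all genes tested, the median log2 fold change was -0.02 as listed and 0.155 after that rescaling. The purified cells expressed the T cell genes Cd8a and Cd3d at 72.2 to 81.9 and at 46.0 to 94.6 FPKM in all samples. Markers of the 4T1 cells differed strongly between the groups. The summed FPKM of 12 4T1 and epithelial markers was 8.18 to 18.0 in CD8+4T1 and 64.2 to 173 in CD8+4T1+NaAc, with 5 of the 7 markers tested higher and Prom2 at 0 in every sample. In bulk RNA, fewer cells of a type and less RNA per cell cannot be told apart.

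Of the 10 genes, 7 had a mean FPKM of 0.5 or more and were tested in a limma fit across 15710 genes, on log2(FPKM + 0.1), a scale that understates the change of low genes. In this fit 4 of the 7 were called (Benjamini-Hochberg adjusted p below 0.05). Acss1, Crat and Slc25a1 were higher and Slc16a3 was lower with NaAc. The background was high, since 36.5% of all genes tested were called, 17.6% higher and 19% lower, and against this share 4 of 7 is not a result about the genes as a group. Likewise, the groups did not overlap for the same 4 genes, against 26.4% of all genes tested. Acly, Slc16a1 and Acat1 were not called. Acss2, Acot12 and Ffar2 lay under the filter, and Acss2, the only one of these with more than 17 fragments in any sample, is given with an exact permutation test.

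**Figure D1:**
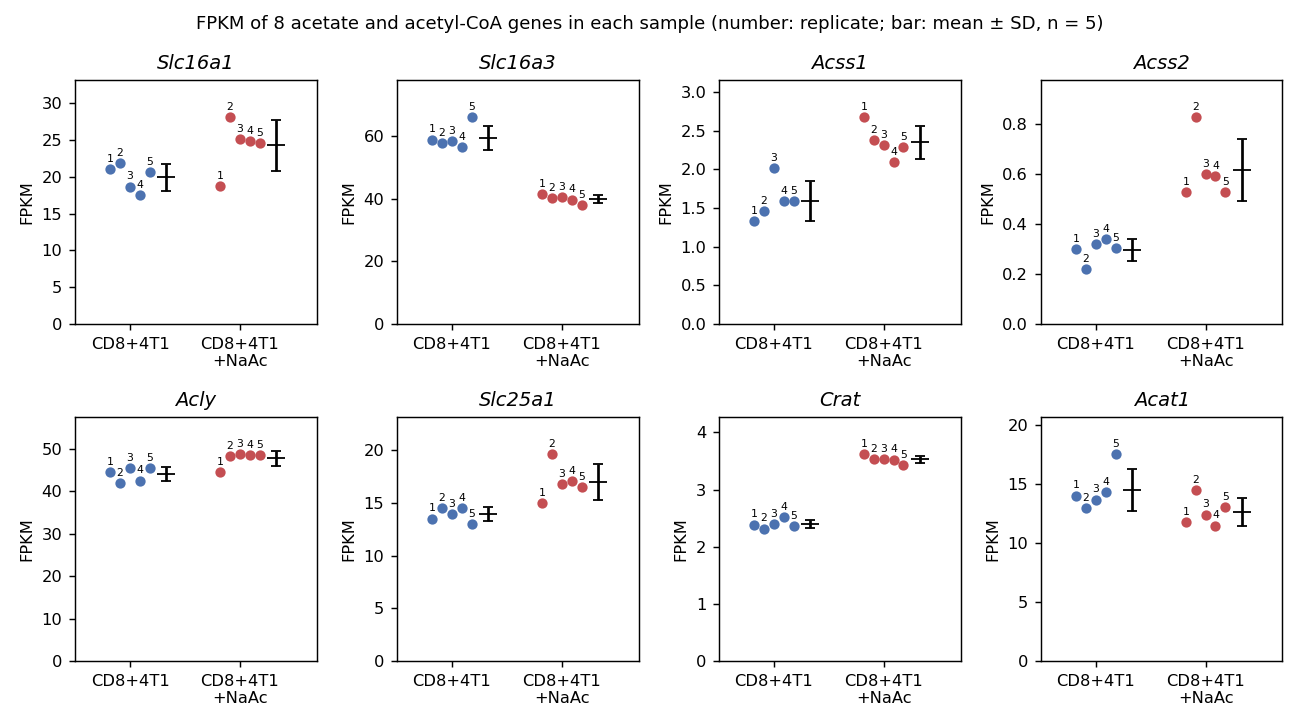
FPKM (vertical axes, from 0) of 8 genes in each of the 5 CD8+4T1 (blue) and 5 CD8+4T1+NaAc (red) samples. Numbers give the replicate, and bars give mean ± SD (n = 5). The groups are separate for Slc16a3, Acss1, Acss2, Slc25a1 and Crat, and overlap for Slc16a1, Acly and Acat1, and CD8+4T1+NaAc replicate 1 lies below the other 4 NaAc samples for Slc16a1 (18.7 FPKM) and Acly (44.5 FPKM).

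Acetate and other short monocarboxylates cross the plasma membrane together with a proton. Slc16a1 encodes MCT1, a transporter with high affinity for its substrates, and Slc16a3 encodes MCT4, a low-affinity transporter best known for the export of lactate from glycolytic cells. Slc16a3 was the most abundant of the 10 genes per length in CD8+4T1 and it fell with NaAc. Its FPKM was 58.9, 57.7, 58.3, 56.6 and 66.1 in CD8+4T1 replicates 1 to 5 and 41.5, 40.2, 40.6, 39.8 and 37.9 in CD8+4T1+NaAc replicates 1 to 5. Every NaAc sample was below every sample without NaAc, and the highest CD8+4T1 value, that of replicate 5, stood apart from the other 4. The mean was 59.5 ± 3.79 FPKM (SD, n = 5) without and 40.0 ± 1.32 (SD, n = 5) with NaAc, a log2 fold change of -0.57 (SE 0.05, adjusted p = 3.07e-05, limma). Slc16a3, listed on chromosome 11 at 120839306 to 120851694 on the plus strand, overlaps the antisense gene Csnk1d over 1879 bases, and the strand setting of the counting is not given in the sources used here. Csnk1d itself did not pass the test (log2 fold change -0.01, adjusted p = 0.819, limma).

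Slc16a1 was not called. Its FPKM was 21.0, 21.8, 18.6, 17.5 and 20.6 without NaAc and 18.7, 28.1, 25.1, 24.8 and 24.6 with NaAc. In 4 of the 5 NaAc samples it was above every CD8+4T1 sample, while replicate 1 lay within the CD8+4T1 range. The means were 19.9 ± 1.81 and 24.3 ± 3.43 FPKM (SD, n = 5 each), and the log2 fold change of 0.27 (SE 0.10) did not pass the adjusted threshold (adjusted p = 0.0603, limma). Without CD8+4T1+NaAc replicate 1 the mean with NaAc was 25.6 ± 1.65 FPKM (SD, n = 4) and the log2 fold change 0.37 passed it (adjusted p = 0.00244, limma). That sample also had the fewest genes detected, 20233, where the other 9 had 22291 to 25088.

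The ratio of both transporters within a sample does not depend on how samples are scaled. There were 0.335 ± 0.0309 (SD, n = 5) units of Slc16a1 per unit of Slc16a3 FPKM without NaAc and 0.608 ± 0.0936 (SD, n = 5) with NaAc. The lowest NaAc sample, replicate 1, reached 0.450 and the highest CD8+4T1 sample 0.378, so the groups did not overlap. On the log2(FPKM + 0.1) scale the ratio differed by 0.85 (exact permutation test, two-sided, p = 0.00794, which is the smallest value 5 against 5 samples can give, and 0.0119 after Benjamini-Hochberg adjustment over 3 ratios).

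The promoters of this pair are shown because the ratio of their transcripts differed between the groups. The windows hold the 250 bases before the transcription start from RefSeq (GRCm38.p6, chr3:104638414-104638663 and chr11:120948817-120949066, plus strand), 5′ to 3′, and capitals mark ACGTG on either strand, the core of hypoxia response elements, which also lies within the E-box CACGTG.
Slc16a1: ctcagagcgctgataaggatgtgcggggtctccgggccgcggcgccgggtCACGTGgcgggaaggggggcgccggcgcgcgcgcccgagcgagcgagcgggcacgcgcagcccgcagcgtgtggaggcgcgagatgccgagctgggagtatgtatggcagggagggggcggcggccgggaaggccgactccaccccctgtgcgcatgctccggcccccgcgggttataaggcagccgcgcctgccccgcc
Slc16a3: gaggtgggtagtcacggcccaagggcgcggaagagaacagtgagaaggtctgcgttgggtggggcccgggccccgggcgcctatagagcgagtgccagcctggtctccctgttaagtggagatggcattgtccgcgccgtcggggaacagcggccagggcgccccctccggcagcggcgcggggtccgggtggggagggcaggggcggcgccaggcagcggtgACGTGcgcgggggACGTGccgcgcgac
The Slc16a1 window held 1 palindromic CACGTG, found in 6.02% of 32851 RefSeq promoter windows of this length. The Slc16a3 window held 2 ACGTG matches close to the start, and 1.95% of all windows held 2 or more, against 16.6% with any. These are matches of letters and no binding was measured.

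MCT1 and MCT4 need a chaperone to reach the plasma membrane, basigin (Bsg) in most cells and embigin (Emb) in some. Bsg was at 312 ± 13.5 FPKM without and 294 ± 25.0 (SD, n = 5 each) with NaAc (log2 fold change -0.09, adjusted p = 0.346, limma). Emb was higher with NaAc, at 19.9 ± 1.08 FPKM against 27.4 ± 3.25 (SD, n = 5 each; log2 fold change 0.45, SE 0.08, adjusted p = 0.00108, limma). Of the 7 other uptake genes listed, 4 were tested, and the orphan transporter Slc16a6 was the second one called (log2 fold change 0.22, adjusted p = 0.0340, limma). Both as listed and after rescaling to the same total, 2 of these 4 were higher and none lower. Over all genes tested, 17.6% were higher as listed and 31.2% after rescaling. The sodium-coupled monocarboxylate transporters Slc5a8 and Slc5a12 and the transporter Slc16a7 (MCT2) lay under the filter.

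FFAR2 is the G protein-coupled receptor through which extracellular acetate can signal without being taken up. Ffar2 had 0 to 2 fragments in every sample, which is under the 3 fragments needed here to give a fold, and no difference was detectable at this depth. The other short-chain fatty acid receptors listed, Ffar3, Hcar2 and Olfr78, were not tested either. Ffar3 was at 0 in every sample, and Hcar2, the receptor of hydroxybutyrate and niacin, reached at most 0.252 FPKM without and 0.907 FPKM with NaAc.

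Acetyl-CoA synthetases join acetate to coenzyme A at the cost of ATP. Acss1 encodes the mitochondrial enzyme and Acss2 the enzyme of the cytosol and nucleus. Transcripts of both were scarce, and both were higher with NaAc. For Acss1 the samples gave 1.33, 1.46, 2.02, 1.59 and 1.59 FPKM without NaAc and 2.68, 2.38, 2.32, 2.09 and 2.29 with it. The NaAc samples all lay above the CD8+4T1 samples, although replicate 3 without NaAc (2.02) came close to replicate 4 with NaAc (2.09). The mean rose 1.47-fold, from 1.60 ± 0.259 to 2.35 ± 0.212 FPKM (SD, n = 5 each; log2 fold change 0.54, SE 0.12, adjusted p = 0.00510, limma). These values rest on 92 to 189 fragments per sample.

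Acss2 was lower in level per length and also differed between the groups. Its FPKM was 0.300, 0.220, 0.320, 0.340 and 0.304 in CD8+4T1 and 0.529, 0.830, 0.602, 0.593 and 0.527 in CD8+4T1+NaAc. The groups did not overlap, and NaAc replicate 2 stood above the other 4 NaAc samples. The mean was 0.297 ± 0.0458 without and 0.616 ± 0.124 FPKM (SD, n = 5 each) with NaAc, which is 2.08-fold and a difference of 0.84 in log2(FPKM + 0.1) (exact permutation test, two-sided, p = 0.00794, the smallest possible). The difference was 0.32 with a pseudocount of 1 and 1.02 with 0.01. The exact permutation p was the same, as it must be for groups that do not overlap, and does not show stability. With no filter on low values, which put Acss2 among 32272 genes of which 17% were called, limma gave an adjusted p of 0.0114. Between 39 and 159 fragments per sample lie behind these values.

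The listed Acss2 length, 10163 bases, is 3.47 times that of its longest coding transcript in GENCODE M21 (2931 bases), against 1.14 times for Acss1, so its FPKM is low for its fragments. Counted as if all fragments came from the longest coding transcript, Acss2 was at 1.03 without and 2.14 with NaAc and Acss1 at 1.82 and 2.68. Where the fragments lie within the listed length is not known, so these values rest on that assumption. Acss2, listed on chromosome 2 at 155359868 to 155427644 on the plus strand, overlaps 2 other genes above 1 FPKM, both antisense. Gss shares 22544 bases of its span and Ggt7 290 bases. Neither neighbour passed the test, with log2 fold changes of -0.06 for Gss (adjusted p = 0.405, limma) and 0.01 for Ggt7 (adjusted p = 0.944, limma).

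The Acss2 to Acss1 ratio was 0.188 ± 0.0330 without and 0.264 ± 0.0574 (SD, n = 5 each) with NaAc. The groups overlapped, because NaAc replicate 1, at 0.198, lay within the CD8+4T1 range of 0.151 to 0.225. The log2 difference of 0.31 did not exceed the spread (exact permutation test, two-sided, p = 0.0952, before and after adjustment over the 3 ratios). It was 0.39 without NaAc replicate 1 (exact permutation test, p = 0.0317), 0.46 with a pseudocount of 0.01 (exact permutation test, p = 0.0317) and -0.06 with a pseudocount of 1 (exact permutation test, p = 0.532), so the data do not settle whether both synthetases moved by the same amount.

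The promoters of both synthetases are shown because both transcripts rose. They are the RefSeq windows of 250 bases before the start on GRCm38.p6, chr2:150668241-150668490 on the minus strand and chr2:155517793-155518042 on the plus strand, written 5′ to 3′ along the gene, with the GC box GGGCGG or its complement CCGCCC, to which Sp1 family factors bind, in capitals.
Acss1: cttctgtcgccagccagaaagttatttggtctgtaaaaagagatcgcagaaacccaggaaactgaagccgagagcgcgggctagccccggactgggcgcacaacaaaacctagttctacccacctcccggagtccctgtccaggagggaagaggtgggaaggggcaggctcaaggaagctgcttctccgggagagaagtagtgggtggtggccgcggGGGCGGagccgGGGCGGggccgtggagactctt
Acss2: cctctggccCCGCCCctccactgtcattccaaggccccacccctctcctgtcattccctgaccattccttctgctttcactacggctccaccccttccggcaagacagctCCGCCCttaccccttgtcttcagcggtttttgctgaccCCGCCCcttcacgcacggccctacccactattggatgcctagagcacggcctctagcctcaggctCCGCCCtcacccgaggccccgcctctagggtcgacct
Acss1 held 2 GC boxes and Acss2 held 4, and 16.1% of all 32851 windows held 2 or more. Acly and Slc25a1 also held 4 each. The sterol response element TCACNCCAC, searched on both strands, matched in 1.05% of all windows and in none of those of the 8 members with an entry in the RefSeq table, which says only that these letters do not lie in these windows.

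Citrate carries acetyl units out of mitochondria. Slc25a1 encodes the citrate carrier of the inner membrane, and Acly encodes ATP-citrate lyase, which cleaves the exported citrate to acetyl-CoA in the cytosol. Slc25a1 rose with NaAc, from 13.5, 14.5, 13.9, 14.5 and 13.0 FPKM in CD8+4T1 to 14.9, 19.6, 16.7, 17.0 and 16.4 in CD8+4T1+NaAc. All NaAc samples lay above all others, replicate 1 by the least. The means were 13.9 ± 0.661 and 16.9 ± 1.68 FPKM (SD, n = 5 each; log2 fold change 0.28, SE 0.07, adjusted p = 0.00874, limma). Slc25a1 lies on chromosome 16 at 17743087 to 17746083 on the minus strand and overlaps no other listed gene.

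Acly was far more abundant than either synthetase and differed little. Its FPKM was 44.5, 41.9, 45.4, 42.5 and 45.5 without NaAc and 44.5, 48.2, 48.7, 48.6 and 48.5 with NaAc. Replicates 2 to 5 with NaAc exceeded every CD8+4T1 sample and agreed closely with each other, and replicate 1 did not follow them. The means of 44.0 ± 1.68 and 47.7 ± 1.77 FPKM (SD, n = 5 each) gave a log2 fold change of 0.12 (SE 0.04), which was not called (adjusted p = 0.0607, limma). Without NaAc replicate 1, the mean of 48.5 ± 0.201 FPKM (SD, n = 4) gave 0.14 and was called (adjusted p = 0.0118, limma).

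Between the routes to cytosolic acetyl-CoA, transcripts of the citrate route prevailed in both groups. Per unit of Acly there were 0.00675 ± 0.000989 units of Acss2 FPKM without and 0.0129 ± 0.00248 (SD, n = 5 each) with NaAc. The lowest NaAc sample (0.0109) lay above the highest CD8+4T1 sample (0.00801). The log2 ratio differed by 0.73 (exact permutation test, two-sided, p = 0.00794, and 0.0119 after adjustment over 3 ratios). This difference was 0.20 with a pseudocount of 1 and 0.91 with 0.01. The exact permutation p was the same, the smallest possible, and does not measure this change in size. The long listed length of Acss2 lowers both values of the ratio in the same proportion and leaves their difference as it is, apart from the pseudocount.

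**Figure D2:**
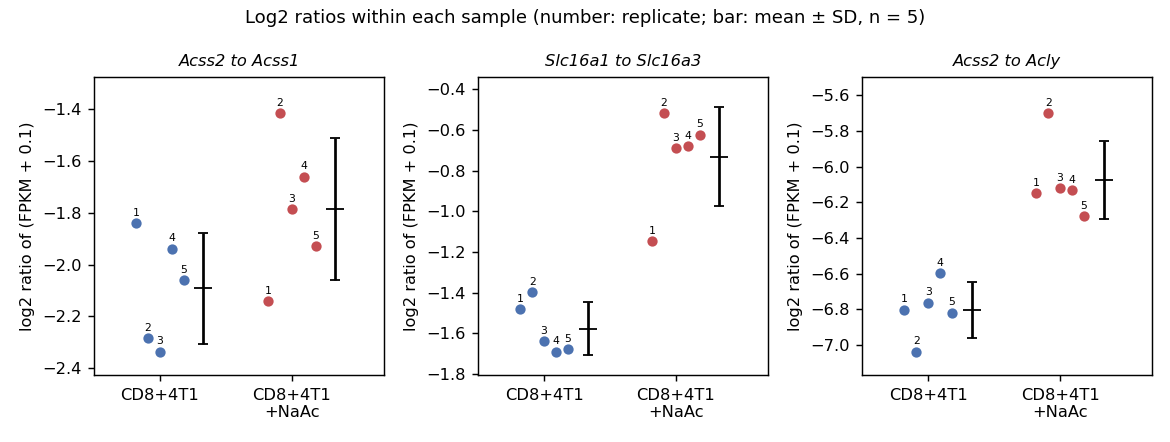
Log2 ratios of (FPKM + 0.1) within each sample (vertical axes, not from 0) for 3 pairs of genes in CD8+4T1 (blue) and CD8+4T1+NaAc (red). Numbers give the replicate, and bars give mean ± SD (n = 5). Slc16a1 to Slc16a3 and Acss2 to Acly are separate between the groups, with differences of 0.85 and 0.73, and Acss2 to Acss1 overlaps.

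Crat, Acot12 and Acat1 act on acetyl-CoA once it is made. Crat encodes carnitine acetyltransferase, which moves acetyl units between coenzyme A and carnitine and so buffers the acetyl-CoA of mitochondria. Crat was the most uniform of the genes that rose. It stood at 2.39, 2.32, 2.40, 2.52 and 2.36 FPKM in CD8+4T1 and at 3.61, 3.53, 3.53, 3.52 and 3.43 in CD8+4T1+NaAc. The gap between the groups was wider than the whole range within either one. The means were 2.40 ± 0.0762 and 3.53 ± 0.0652 FPKM (SD, n = 5 each; 1.47-fold, log2 fold change 0.54, SE 0.06, adjusted p = 0.000109, limma). Crat, on chromosome 2 at 30290483 to 30305825 on the minus strand, shares 59 bases with Dolpp1, which was not called (log2 fold change 0.18, adjusted p = 0.111, limma).

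Acat1 encodes the mitochondrial acetoacetyl-CoA thiolase, which makes or cleaves acetoacetyl-CoA in ketone body and isoleucine metabolism. Its FPKM was 14.0, 12.9, 13.7, 14.3 and 17.5 without NaAc and 11.8, 14.5, 12.4, 11.5 and 13.0 with NaAc. The groups overlapped. The means were 14.5 ± 1.76 and 12.6 ± 1.19 FPKM (SD, n = 5 each), and the log2 fold change of -0.19 was not called (95% confidence interval -0.39 to 0.00300, adjusted p = 0.114, limma). It was -0.02 after rescaling to the same total, so its size rested on the scaling. Acat2, the cytosolic thiolase of the same reaction, was at 9.47 ± 0.715 and 9.20 ± 1.09 FPKM (SD, n = 5 each; log2 fold change -0.05, adjusted p = 0.713, limma).

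Acot12, a cytosolic hydrolase that returns acetyl-CoA to acetate and is best known in liver, had 0 to 17 fragments per sample. Its mean was 0.133 ± 0.0929 FPKM without and 0.143 ± 0.115 (SD, n = 5 each) with NaAc. The log2 difference of 0.02 was not detectable at this depth (exact permutation test, two-sided, p = 0.952). None of the 5 other acyl-CoA hydrolases tested was called as listed. After rescaling to the same total 2 of them were higher, where 31.2% of all genes tested were. These were Acot7 with 0.23 (adjusted p = 0.0149, limma) and Acot8 with 0.27 (adjusted p = 0.00596, limma).

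The order of the levels per length differed between the groups at the top. Without NaAc Slc16a3 was first, in every sample above Acly (lowest Slc16a3 56.6 FPKM, highest Acly 45.5), and with NaAc Acly was first in every sample (lowest Acly 44.5, highest Slc16a3 41.5). Slc16a1 followed in both groups. Slc25a1 (13.0 to 14.5 FPKM) and Acat1 (12.9 to 17.5) could not be told apart without NaAc, while with NaAc Slc25a1 (14.9 to 19.6) lay above Acat1 (11.5 to 14.5). Crat, Acss1, Acss2, Acot12 and Ffar2 followed in this order in the means of both groups.

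The scaling of the samples decided some calls and no direction among the genes called. Rescaled to the same total, 6 of the 7 genes tested were called, with 40% of all genes called, 31.2% higher and 8.83% lower. Acly then had a log2 fold change of 0.29 (adjusted p = 0.000729, limma) and Slc16a1 of 0.45 (adjusted p = 0.00539, limma). Slc16a3 remained lower at -0.39 and Acss1, Crat and Slc25a1 higher at 0.71, 0.71 and 0.46. Scaling to the summed T cell markers gave the same 6 calls, with 35.8% of all genes called.

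**Figure D3:**
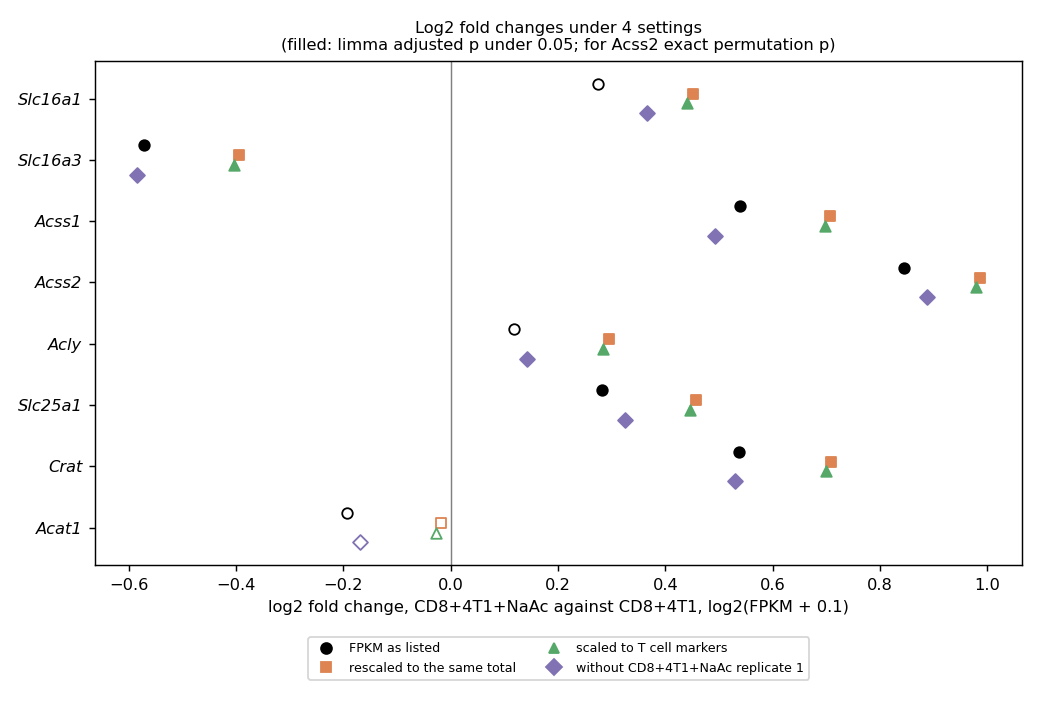
Log2 fold changes (horizontal axis) of 8 genes on log2(FPKM + 0.1) as listed (circles), rescaled to the same total (squares), scaled to T cell markers (triangles) and without CD8+4T1+NaAc replicate 1 (diamonds). Filled symbols have a limma adjusted p under 0.05, or for Acss2 an exact permutation p under 0.05. Acly and Slc16a1 are open in the first setting and filled in the other 3, and Acat1 is open in all 4.

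Other genes around acetyl-CoA were read from 9 lists with 53 genes, of which 42 were tested. In all 8 were higher, 3 lower and 31 not called, so that 11 of 42 were called where 36.5% of all genes tested were, and the median log2 fold change was 0.02 against -0.02 over all genes. After rescaling to the same total 19 were higher and 1 lower, where 31.2% of all genes were higher and 8.83% lower, and the median was 0.19 against 0.155. The carnitine shuttle carries long-chain acyl units into mitochondria. As listed 2 of its 5 genes were higher and none lower, where 17.6% of all genes tested were higher and 19% lower. After rescaling to the same total 3 were higher and none lower, where 31.2% of all genes were higher and 8.83% lower. Cpt1a, the outer-membrane palmitoyltransferase that controls entry, rose from 7.50 ± 0.353 to 12.6 ± 0.851 FPKM (SD, n = 5 each; log2 fold change 0.74, SE 0.06, adjusted p = 1.91e-05, limma). Cpt2, its partner on the inner membrane, rose by 0.42 (adjusted p = 0.00758, limma).

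Of 4 genes tested for citrate and its export, 2 were higher and 1 was lower, where 17.6% of all genes tested were higher and 19% lower. After rescaling to the same total 3 were higher and none lower, where 31.2% of all genes were higher and 8.83% lower. Slc25a10, the dicarboxylate carrier, rose from 5.14 ± 0.428 to 7.75 ± 0.899 FPKM (SD, n = 5 each; log2 fold change 0.58, adjusted p = 0.000632, limma). Cs, citrate synthase, which consumes acetyl-CoA, was higher by 0.23 (adjusted p = 0.00480, limma).

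The pyruvate dehydrogenase complex makes acetyl-CoA from pyruvate in mitochondria. Of 8 genes tested for mitochondrial acetyl-CoA synthesis, 2 were lower and none higher as listed, both of this complex. After rescaling to the same total 1 was lower and 3 were higher. Over all genes tested, 19% were lower and 17.6% higher as listed, and 8.83% were lower and 31.2% higher after rescaling. Against these shares the counts are not a result about the complex. Dld, its dihydrolipoamide dehydrogenase, which other dehydrogenase complexes share, was at 34.6 ± 2.08 FPKM without and 26.6 ± 1.67 (SD, n = 5 each) with NaAc (log2 fold change -0.38, adjusted p = 0.000581, limma). Pdhb, the beta subunit of the first enzyme, had -0.27 (adjusted p = 0.000766, limma). Rescaled to the same total, Dld stayed lower (-0.21, adjusted p = 0.0357, limma) and Pdhb was not called (-0.09, adjusted p = 0.0799, limma), and scaled to T cell markers neither was called, with -0.22 for Dld (adjusted p = 0.0930, limma) and -0.10 for Pdhb (adjusted p = 0.142, limma). Pdha1, Dlat and Pdhx, other genes of the complex, had log2 fold changes of -0.02, -0.08 and 0.02 as listed and were not called. Pdha1 was called higher after rescaling (0.16, adjusted p = 0.0328, limma), and Dlat was called lower without NaAc replicate 1 (-0.19, adjusted p = 0.0129, limma).

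Among genes that use cytosolic acetyl-CoA, 2 of 7 were higher and none lower as listed, where 17.6% of all genes tested were higher and 19% lower. After rescaling to the same total 3 were higher and none lower, where 31.2% of all genes were higher and 8.83% lower. Acacb, the acetyl-CoA carboxylase at the mitochondrial surface whose product inhibits Cpt1a, rose from 1.38 ± 0.144 to 2.05 ± 0.116 FPKM (SD, n = 5 each; log2 fold change 0.54, adjusted p = 0.00208, limma). Kat2a, the histone acetyltransferase GCN5, rose from 10.8 ± 0.511 to 15.1 ± 1.57 FPKM (SD, n = 5 each; log2 fold change 0.47, adjusted p = 0.000582, limma). Acaca and Fasn, which make fatty acids in the cytosol, had log2 fold changes of -0.08 and -0.07 and were not called. No regulator or ketone and thiolase gene was called as listed. After rescaling to the same total, 2 of 4 ketone and thiolase genes and 1 of 5 regulators were higher, and none was lower.

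SREBP factors switch on sterol and fatty acid synthesis genes, and Acss2 and Acly are among their known targets. Srebf1 and Srebf2 had log2 fold changes of 0.16 (adjusted p = 0.159, limma) and -0.02 (adjusted p = 0.840, limma). Srebf1 was called higher after rescaling to the same total (0.33, adjusted p = 0.00953, limma), scaled to T cell markers and without NaAc replicate 1 (0.23, adjusted p = 0.0101, limma). Of 13 SREBP-regulated genes tested, 4 were higher and 4 lower, with a median of 0.05, where 36.5% of all genes tested were called, 17.6% higher and 19% lower. After rescaling to the same total 6 were higher and 2 lower, with a median of 0.23, where 31.2% of all genes were higher and 8.83% lower. Scd1, the fatty acid desaturase, rose from 0.787 ± 0.196 to 4.46 ± 0.698 FPKM (SD, n = 5 each; log2 fold change 2.38, SE 0.18, adjusted p = 1.54e-05, limma). Dhcr7, of the last step of cholesterol synthesis, was higher by 0.57 (adjusted p = 0.00977, limma). In contrast, Idi1 of isoprenoid synthesis and Insig1, which holds SREBP in the endoplasmic reticulum, were lower, with log2 fold changes of -0.48 (adjusted p = 0.000651, limma) and -0.38 (adjusted p = 0.0193, limma), and Insig1 was not called after rescaling to the same total (adjusted p = 0.124, limma).

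**Figure D4:**
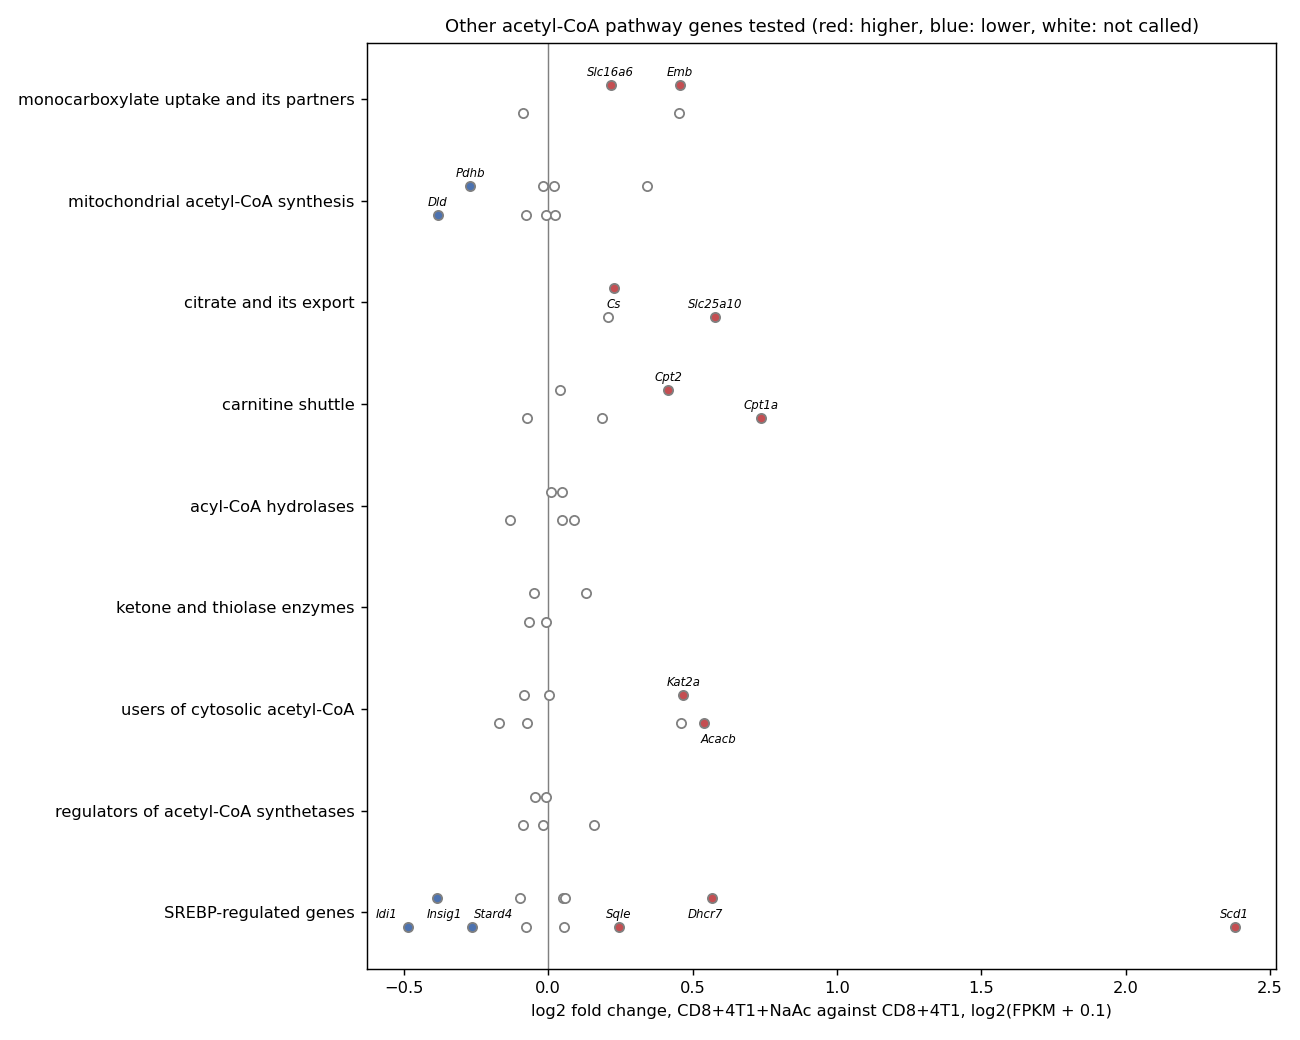
Log2 fold changes (horizontal axis) of genes tested in the acetyl-CoA lists and the SREBP list, by list, apart from a few that are counted in the text and not reported here. Red circles are higher, blue circles lower and white circles not called (limma, adjusted p under 0.05), and the called genes drawn are named. The hydrolase, thiolase and regulator lists hold white circles alone, and Scd1 lies farthest to the right at 2.38.

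Summed markers of 4T1 and epithelial cells, of CD4 T cells and of fibroblasts did not overlap between the groups. Those of T cells, myeloid cells and B cells overlapped. Krt8, a keratin of epithelial cells, was at 1.77 to 5.66 FPKM without and 20.0 to 53.5 FPKM with NaAc (log2 fold change 3.33, adjusted p = 8.10e-05, limma). Epcam, another epithelial gene, was low in both groups and was not called (0.327 to 0.911 and 0.506 to 0.911 FPKM). The T cell markers summed to 608 to 688 FPKM without and 545 to 633 FPKM with NaAc, with 5 of 8 lower, Cd3d by the listed values (log2 fold change -0.54, adjusted p = 0.00405, limma) and Cd8a not called (-0.04, adjusted p = 0.559, limma). Rescaled to the same total, 3 of these 8 were higher, Cd8a among them at 0.14 (adjusted p = 0.0475, limma), and 4 were lower. Cd4 was higher with NaAc (0.335 to 0.796 against 1.39 to 1.87 FPKM, log2 fold change 1.44, adjusted p = 0.000317, limma). The 6 myeloid markers summed to 25.1 to 34.4 FPKM without and 25.9 to 29.8 FPKM with NaAc, with 1 of 3 tested higher, Lyz2 (at most 1.66 FPKM in any sample, log2 fold change 0.96, adjusted p = 0.0328, limma). The 4 B cell markers summed to 3.92 to 4.91 and 4.55 to 6.22 FPKM, with none of the 2 tested called as listed, while Cd79b was called higher after rescaling to the same total (0.54, adjusted p = 0.0187, limma), and Cd79a reached at most 1.45 FPKM in any sample. The 4 fibroblast markers summed to 0.525 to 0.751 FPKM without and 1.03 to 1.28 FPKM with NaAc, without overlap, with 1 tested and not called.

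The part of these cells in the values of the 10 genes was not tested. Side by side, the 4T1 marker sum was 73.0, 173, 101, 126 and 64.2 FPKM in NaAc replicates 1 to 5. Acss2 was highest in replicate 2, where that sum was highest, and lowest in replicates 5 and 1, where it was lowest. Slc16a1, Slc25a1 and Acat1 were also highest in replicate 2. Crat, Acss1 and Slc16a3 were highest in replicate 1 and Acly in replicate 3, and these genes did not follow this order. In CD8+4T1 the marker sum was 8.18, 10.7, 8.91, 17.3 and 18.0 FPKM in replicates 1 to 5. There Acss2 was lowest in replicate 2 and highest in replicate 4. Leaving out NaAc replicate 2, the Acss2 difference was 0.75 (exact permutation test, two-sided, p = 0.0159, the smallest that 5 against 4 samples can give).

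**Figure D5:**
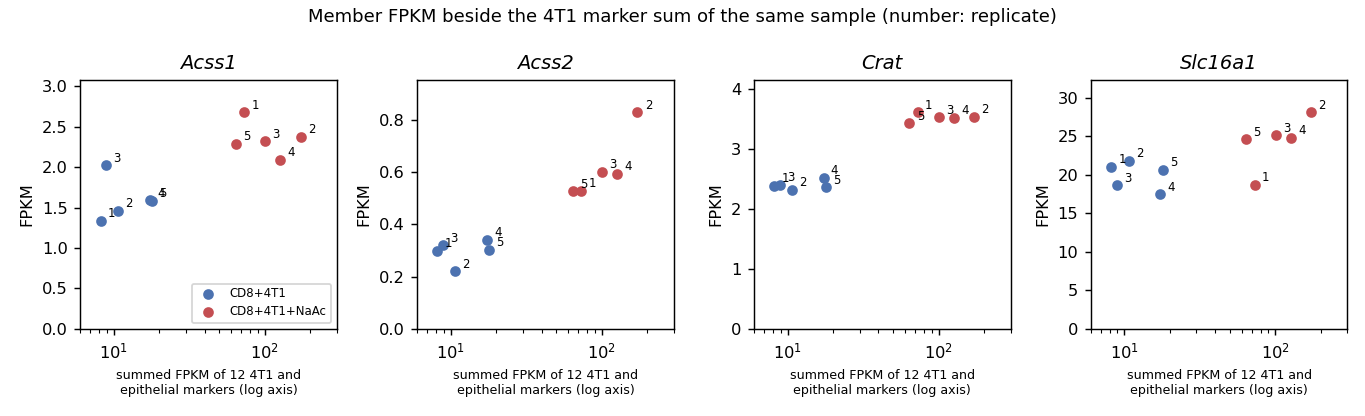
FPKM of Acss1, Acss2, Crat and Slc16a1 (vertical axes, from 0) against the summed FPKM of 12 4T1 and epithelial markers in the same sample (horizontal log axis), for CD8+4T1 (blue) and CD8+4T1+NaAc (red), with replicate numbers. The 2 groups do not overlap on the horizontal axis (8.18 to 18.0 against 64.2 to 173), and within the NaAc group Acss2 is highest where the marker sum is highest while Crat stays between 3.43 and 3.61 FPKM.

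Across the 10 samples, the genes whose log2 values ran most closely with each member were read from the 15710 genes tested as a description, since both groups enter and any gene that differs between them correlates. For Acss2 they were Aldh2 (Pearson r 0.984), Angptl2 (0.982) and Uaca (0.982). For Acly they were Cat (0.968), Gm12751 (0.957) and Trf (0.954). For Slc16a1 they were Dhx36 (0.980), Arhgap21 (0.964) and Cul4a (0.964), and no gene was among the closest 3 of more than 1 of these members.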

How the data were processed

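RNA sequencing covered CD8+ T cells after co-culture with the 4T1 line, 5 samples without and 5 with NaAc, grouped by the sample labels. The authors deposited FPKM for 57825 genes, 1 column per sample, not pooled, with each gene's length and position as other columns. The submitters' processing notes name fastp, HISAT2 2.0.5, StringTie 1.3.3b and featureCounts 1.5.0-p3. The genome build and strand setting are not given in the sources used here. Positions are those of the deposited table and are not those of GRCm38, since 1467 of 52073 shared genes have the same start and end.

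FPKM times gene length gave whole fragments for 100% of values (within 0.1). Genes of 0.5 FPKM or more in the mean were compared with limma 3.58.1 (R 4.3.3, trend and robust moderation) on log2(FPKM + 0.1), with Benjamini-Hochberg adjustment over all genes tested. A count model with DESeq2, as named in the methods, was not used on FPKM. Genes under the filter and ratios were compared by exact permutation over the 252 splits (scipy 1.17.1), and 3 fragments were the least from which a fold is given. On simulated data, the limma fit was tested and called 56.6% of 99 genes changed by 0.5 (log2), 97.9% of 94 changed by 1 and 0.0679% of 14722 unchanged genes. The simulation gave every gene the same dispersion, changed few genes and held no difference in cell types. These shares therefore do not carry over to the samples, where 36.5% of genes tested were called.

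The members and lists were chosen with earlier results of these data known. Named were all members, the 12 called list genes with the largest change, genes that share a complex or reaction with a member, defining markers, and the 3 closest patterns for 3 members. Some list genes outside this rule (Slc16a6, Slc16a7, Slc5a8, Slc5a12, Ffar3, Olfr78, Cs, Dld, Pdhb, Pdha1, Dlat, Pdhx, Acaca, Fasn, Acot7, Acot8, Srebf1, Srebf2, Hcar2) were named after their values were seen. A few list genes are counted in their lists and are not reported here by name. Alternatives covered pseudocounts (1 and 0.01), filters, scaling, moderation, sample weights, the replicate block, voom on the recovered fragments and each sample left out. Promoters were matched by symbol for 8 of 10 members. Figures were drawn with matplotlib 3.10.9.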

Additional observations from a re-analysis of the deposited data

Results flagged for a closer look

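In each group of 5, the highest and lowest sample of each gene or ratio was compared with its nearest neighbour, on the log2(FPKM + 0.1) scale, as a share of the group's whole range. A share above 0.71 set a sample apart. Of 24 groups checked 5 held such a sample, and chance gives about 1.2. CD8+4T1+NaAc replicate 1 was apart at the low end for Acly (share 0.890) and for the ratio of Slc16a1 to Slc16a3 (share 0.724). CD8+4T1+NaAc replicate 2 was apart at the high end for Acss2 (share 0.714) and for the ratio of Acss2 to Acly (share 0.727), which both contain Acss2. CD8+4T1 replicate 5 was apart at the high end for Slc16a3 (share 0.741). The groups of Acss2, of Slc16a3 and of both ratios did not overlap with these samples included.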

How the results depend on the processing

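Between 3 and 6 members were called over the alternatives (4 to 6 with 1 sample left out), while the share of all genes called ran from 17% with no filter to 48.3% with sample weights. Slc16a3, Slc25a1, Acss1 and Crat kept their call and direction in each fit that held them (the mean of at least 5 FPKM left out Acss1 and Crat). Acly was also called under median-ratio scaling (0.12, adjusted p = 0.0479, limma) and sample weights, and Slc16a1 with a mean of at least 5 FPKM, sample weights, voom and protein-coding genes alone. Without replicate 1 of both groups, chosen after seeing the data, 6 members and 44.4% of all genes were called. The mean of at least 5 FPKM gave 3733 of 7800 genes (47.9%) and 5 SREBP-regulated genes. Pathway lists had 20 calls after rescaling to the same total, 17 scaled to T cell markers, 17 with sample weights, and 9 to 19 with 1 sample left out (19 without CD8+4T1+NaAc replicate 1, where the share of all genes called was 44.3%). Over all genes, 4900 were higher and 1387 lower after rescaling to the same total, against 2764 and 2978 as listed. The Acss2 to Acss1 difference was 0.46 with a pseudocount of 0.01. With a pseudocount of 1 it was -0.06 (exact permutation test, p = 0.532). It was 0.21 to 0.39 with 1 sample left out. Without replicate 1 of both groups it was 0.46 (exact permutation test, p = 0.0286, the smallest possible). By exact permutation within same-numbered pairs its p was 0.25. The cause of these changes was not tested. Correlations of deviations between same-numbered samples ran from -0.03 to 0.07 over 5 numbers, with 2 of 5 correlating best with their own number. This cannot show whether same-numbered samples shared a mouse or culture, which the labels do not say. With the replicate block 4 members and 5399 genes were called, against 5742 without it, and the ratio differences, 0.85 for Slc16a1 to Slc16a3 and 0.73 for Acss2 to Acly, had p = 0.0625 by exact permutation within pairs, the smallest that 5 pairs can give. Depth limits Acss2 (39 to 159 fragments), Acot12 and Ffar2.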
